A study of Homo sapiens with 12 samples.

Results

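The 8 genes described here belong to the type II branch of the MAGE family: MAGED1, MAGED2, TRO, MAGEH1, MAGEF1, MAGEE1, NDN and NSMCE3. They were taken from the raw count table by symbol, as 8 of its 59611 rows, and the family was chosen from measured values, since MAGED1 stood higher and TRO lower in edited KOPN-8 cells than in their controls. Every value from that contrast is therefore a description of these libraries and carries no test for the 8 genes. All 8 had a row, 7 had at least 1 count in any library, and 6 (MAGED1, MAGED2, TRO, MAGEH1, MAGEF1 and NSMCE3) passed the filter on low counts and were among the 15218 genes tested.

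The counts come from stranded poly-A RNA-seq of 697 and KOPN-8, established human lines of acute leukaemia of the B lineage, in 4 groups of 3 libraries. Control cells of each line carried an empty sgRNA vector and are labelled SETD2 WT. Edited 697 cells are clone BM_B and edited KOPN-8 cells clone BA, each made with an sgRNA against SETD2, the histone H3 lysine methyltransferase, and labelled SETD2 heterozygous KO. Whether the controls are clones is not stated in the labels. Each edited group is 1 clone, so the edit cannot be told apart from other differences between a clone and its control. P-values reflect only how libraries vary within a group, which may be technical. All libraries were fitted together, so each p-value draws on the spread within all 4 groups.

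MAGE proteins share a conserved MAGE homology domain, through which several bind RING-type ubiquitin ligases and alter their activity or choice of substrate. Type I genes (MAGEA, MAGEB and MAGEC) lie on the X chromosome and are known as cancer-testis antigens, silent in most adult tissues. Type II genes are more widely expressed, lie on several chromosomes and have roles in cell death, cell adhesion, imprinted growth control and DNA repair.

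The family splits by gene structure. In GENCODE 29, MAGED1, MAGED2 and TRO are multi-exon genes, with 14, 13 and 13 exons in their longest coding transcript. MAGEH1, MAGEF1, MAGEE1, NDN and NSMCE3 have 1 coding exon, and the annotation tags 4 of these 5 as retrogenes, all but MAGEH1. MAGED1, MAGED2, TRO, MAGEH1 and MAGEE1 are on chromosome X, MAGEF1 on chromosome 3, and NDN and NSMCE3 on chromosome 15. By start position, 1 tested gene falls between MAGED2 and TRO, SNORA11, which overlaps MAGED2. Between TRO and MAGEH1 fall 2, and between MAGED1 and MAGED2 fall 12.

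The 250 bases before the RefSeq starts of MAGED1 (2 starts) and TRO are shown because these 2 genes differed most between the KOPN-8 groups, and that of NSMCE3 because it was called in 697. Sequences are from RefSeq on GRCh38.p14, written 5′ to 3′ on the gene's strand, with each CG dinucleotide in capitals; which start these cells used was not measured.
MAGED1 first start, chrX:51802826-51803075, plus strand: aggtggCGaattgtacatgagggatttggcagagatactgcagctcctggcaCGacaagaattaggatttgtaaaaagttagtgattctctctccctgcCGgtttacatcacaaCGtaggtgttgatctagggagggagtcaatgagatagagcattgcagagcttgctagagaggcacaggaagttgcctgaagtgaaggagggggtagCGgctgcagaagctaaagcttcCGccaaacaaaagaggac
MAGED1 second start, chrX:51893373-51893622, plus strand: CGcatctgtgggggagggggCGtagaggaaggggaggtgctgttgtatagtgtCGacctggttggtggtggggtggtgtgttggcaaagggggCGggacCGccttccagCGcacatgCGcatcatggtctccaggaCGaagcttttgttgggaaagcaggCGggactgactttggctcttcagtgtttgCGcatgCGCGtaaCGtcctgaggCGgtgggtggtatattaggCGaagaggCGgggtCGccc
TRO, chrX:54920574-54920823, plus strand: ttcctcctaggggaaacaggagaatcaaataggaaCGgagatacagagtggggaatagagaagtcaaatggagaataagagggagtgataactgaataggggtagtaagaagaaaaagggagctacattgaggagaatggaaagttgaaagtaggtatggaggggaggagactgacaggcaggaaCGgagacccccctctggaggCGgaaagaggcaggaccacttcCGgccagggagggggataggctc
NSMCE3, chr15:29269823-29270072, minus strand: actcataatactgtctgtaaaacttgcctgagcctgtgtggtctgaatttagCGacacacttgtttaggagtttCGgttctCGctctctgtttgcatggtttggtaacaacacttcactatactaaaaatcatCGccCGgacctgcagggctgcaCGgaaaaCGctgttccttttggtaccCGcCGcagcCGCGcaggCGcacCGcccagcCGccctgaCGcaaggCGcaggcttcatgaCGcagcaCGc

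The windows differ in CG content. The TRO window held 4 CG dinucleotides, the MAGED1 windows 6 and 17, and the NSMCE3 window 18. Over the 35116 RefSeq windows of the same length the median was 11, and 93.9% held at least 1. At least as many as TRO were found in 70.7% of all windows, as the first MAGED1 start in 61.9%, as the second in 39.0% and as NSMCE3 in 36.8%. Of the 8 genes, 7 had an entry, MAGEH1 being the other. NDN had the most, with 30 CG dinucleotides and 73.2% G and C, and 12.4% of all windows held at least as many. No methylation or chromatin was measured in the data used here.

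Library totals ran from 10378769 to 18278662 counts, so 3 counts, the most that 0 counts in a library can hide, came to 0.159 to 0.292 CPM, the unit of level used here, in which counts are divided by the scaled library size. That limit and the ratio intervals below cover counting error only. All 10 B-lineage markers had counts in all 4 groups, with a summed level of 3878 to 5357 CPM per library. Single markers differed between the lines: DNTT had means of 1966 CPM in control 697 and 2.02 CPM in control KOPN-8, and MME 3.71 and 967 CPM. Markers of T cells, myeloid, erythroid, stromal and neural cells summed to at most 4.41 CPM in any library, except T-cell markers in KOPN-8. There TRAC, the T-cell receptor alpha constant gene, made up nearly all of 77.6 to 95.9 CPM in control and 49.2 to 59.6 CPM in edited libraries, while CD3D had 0 counts; its part in the results below was not tested. SETD2 itself, the targeted gene, rose in edited 697 (log2 fold change 0.44; adjusted p 0.000103 by edgeR quasi-likelihood with Benjamini-Hochberg adjustment) and was not called in KOPN-8 (-0.10, adjusted p = 0.309), with means of 161 CPM in control and 219 CPM in edited 697, and of 169 and 158 CPM in KOPN-8.

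**Figure D1:**
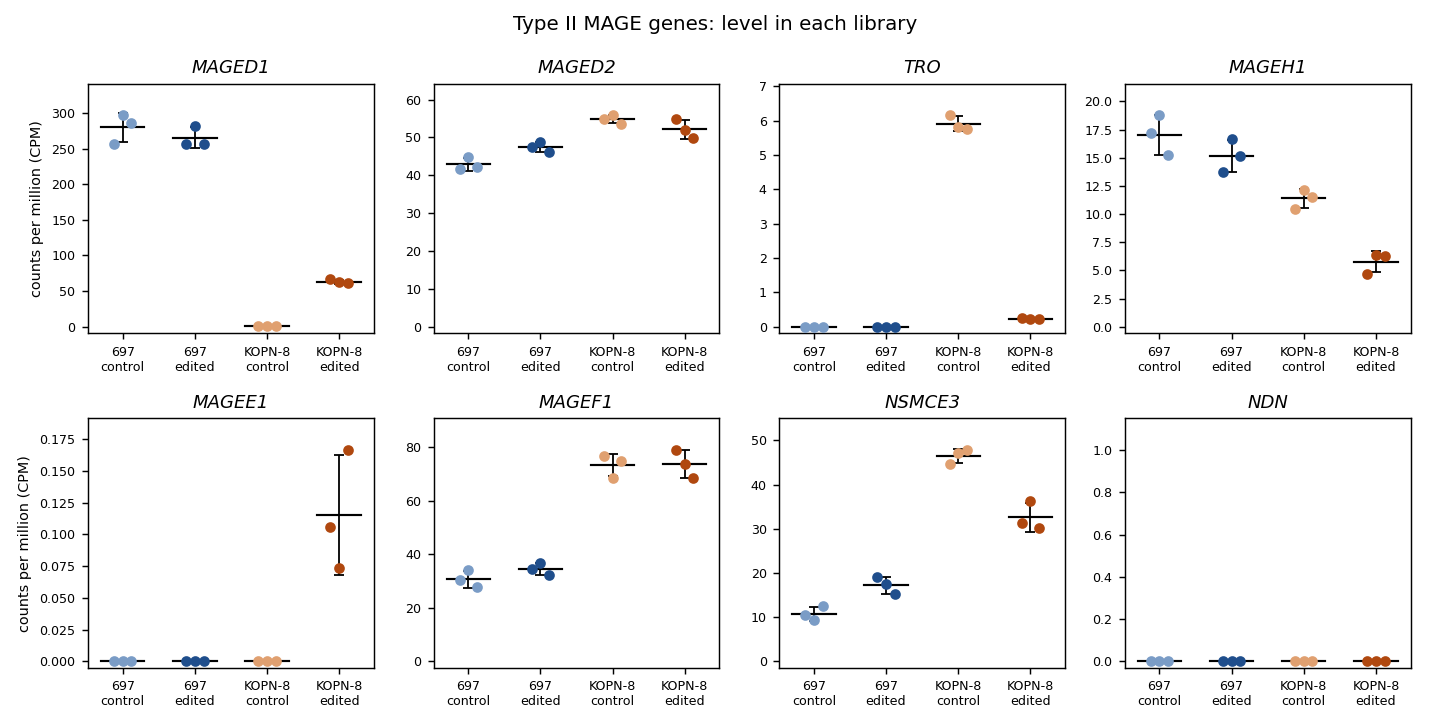
Level of each type II MAGE gene in CPM (y axis, linear, 1 scale per gene) in the 12 libraries by group; points are libraries, horizontal lines group means and bars the SD (n = 3). MAGED1 is near 0 only in control KOPN-8, TRO has counts only in KOPN-8, and NDN has none.

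MAGED1, an adaptor that binds the low-affinity neurotrophin receptor and the caspase inhibitor XIAP, was abundant in 697 and nearly silent in control KOPN-8. Its level was 257, 297 and 286 CPM in the control 697 libraries and 257, 282 and 257 CPM in the edited ones. Those groups overlapped, with means of 280 ± 20.6 and 265 ± 14.6 CPM (SD, n = 3). The log2 fold change in 697 was -0.08 (SE 0.0830; adjusted p 0.647 by edgeR quasi-likelihood with Benjamini-Hochberg adjustment), so no difference was detected.

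In KOPN-8, MAGED1 stood at 1.34, 0.466 and 0.489 CPM in control libraries, from 18, 8 and 9 counts, against 66.5, 62.1 and 60.8 CPM in edited ones. No edited library came near a control. The fitted log2 difference was 6.45 (SE 0.163), and summed counts gave a ratio of 88.7 (95% counting interval 63.6 to 128). The first control library held the most of the few control counts, and without it the log2 difference was 7.02. Even so, edited KOPN-8 stayed below 697: control 697 had 4.43 times as much MAGED1 mRNA (4.26 to 4.60) as edited KOPN-8, and 392 times as much (282 to 564) as control KOPN-8. In bulk RNA, fewer cells that express a gene and less RNA per cell cannot be told apart.

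TRO encodes trophinin, a membrane protein known for adhesion of the embryo to the uterine lining. It was detected in KOPN-8 alone: all 6 libraries of 697 had 0 counts, which allows up to 0.182 to 0.292 CPM per library. The KOPN-8 controls had 6.16, 5.82 and 5.76 CPM, from 83, 100 and 106 counts. The edited KOPN-8 libraries had 0.265, 0.221 and 0.222 CPM, from 5, 3 and 4 counts, and did not overlap the controls. The log2 difference was -4.59 (SE 0.315), and control KOPN-8 had 24.8 times the level of edited KOPN-8 by summed counts (95% counting interval 14.0 to 48.6). With 3 counts set in place of 0 over the 3 control libraries of 697, control KOPN-8 was 88.6-fold higher. With the 0 counts as measured, the 95% counting interval of the ratio began at 71.6. MAGED1 and TRO thus ran in opposite directions in KOPN-8, and control KOPN-8 was the group lowest in MAGED1 and highest in TRO.

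MAGED2, which is needed for salt transport in the fetal kidney, was the steadiest of the tested members. Its 12 libraries ran from 41.8 to 55.9 CPM. Control and edited 697 had means of 42.9 ± 1.61 and 47.5 ± 1.35 CPM (SD, n = 3), ranges that did not overlap, but a log2 fold change of 0.15 (SE 0.0738) that was not called (adjusted p 0.239 by edgeR quasi-likelihood with Benjamini-Hochberg adjustment). In KOPN-8 the means were 54.8 ± 1.12 and 52.2 ± 2.52 CPM, with overlapping ranges and a log2 difference of -0.07 (SE 0.0710). MAGED2 lies close to TRO on the chromosome and showed no difference of the size seen in TRO. The small nucleolar RNA gene SNORA11 overlaps MAGED2 on the same strand and had means of 1.09 to 1.71 CPM over the 4 groups, so a few reads could belong to either.

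MAGEH1, a small protein that also binds the neurotrophin receptor, was lower in edited KOPN-8. The KOPN-8 controls had 10.5, 12.2 and 11.5 CPM and the edited libraries 4.72, 6.32 and 6.26 CPM, with no overlap and a log2 difference of -0.99 (SE 0.141). In 697 the libraries had 17.2, 18.8 and 15.2 CPM in control and 13.8, 16.6 and 15.1 CPM in edited cells. These overlapped, with a log2 fold change of -0.17 (SE 0.127; adjusted p 0.465 by edgeR quasi-likelihood with Benjamini-Hochberg adjustment).

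MAGEE1, a protein that binds dystrobrevin, and NDN, the imprinted growth suppressor necdin, were at or near the limit of detection. MAGEE1 had 2, 1 and 3 counts in the edited KOPN-8 libraries, 0.0735 to 0.166 CPM, and 0 counts in the other 9 libraries. NDN had 0 counts in all 12. Neither gene was tested, and at this depth neither can be called absent.

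NSMCE3 is a subunit of the SMC5/6 complex, which keeps chromosomes intact during replication and repair, and it pairs with the RING protein NSMCE1. It was the member called in 697, where it rose. Control libraries had 10.4, 9.32 and 12.6 CPM and edited ones 19.0, 17.5 and 15.2 CPM, without overlap. The log2 fold change was 0.70 (SE 0.122; adjusted p 0.000355 by edgeR quasi-likelihood with Benjamini-Hochberg adjustment), or 1.62-fold, with all 3 edited libraries above all 3 controls. In KOPN-8 the direction was opposite, where control libraries had 44.7, 47.1 and 47.8 CPM and edited ones 31.4, 36.3 and 30.1 CPM. Those groups did not overlap either, and the log2 difference was -0.52 (SE 0.100). NSMCE3 lies within FAM189A1 on the same strand in GENCODE 29, and FAM189A1 had 0 counts in every library.

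MAGEF1, which pairs with NSMCE1 to mark the iron-sulfur assembly factor MMS19 for degradation, stood higher in KOPN-8 than in 697, and no difference between the groups of 697 was detected. Control and edited KOPN-8 had 73.5 ± 4.21 and 73.7 ± 5.29 CPM (SD, n = 3), with overlapping ranges and a log2 difference of 0.01 (SE 0.0814). Control and edited 697 had 30.7 ± 3.22 and 34.5 ± 2.27 CPM, also overlapping, with a log2 fold change of 0.17 (SE 0.0911; adjusted p 0.294 by edgeR quasi-likelihood with Benjamini-Hochberg adjustment).

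**Figure D2:**
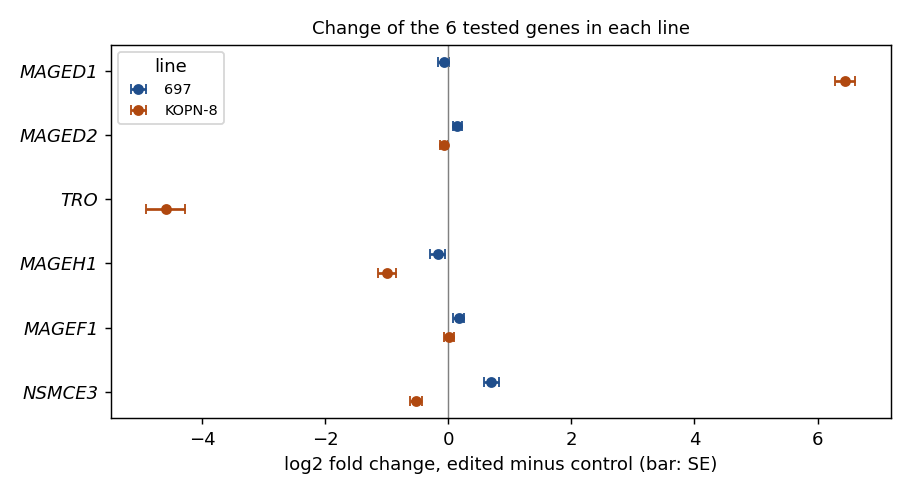
Log2 fold change, edited minus control (x axis), of the 6 tested type II MAGE genes (y axis) in 697 (blue) and KOPN-8 (orange); points are fitted values and bars the SE. In KOPN-8 MAGED1 sits at 6.45 and TRO at -4.59, the 697 values lie between -0.17 and 0.70, and TRO has no 697 value because it had no count there.

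Among the 5 members with counts in 697, 1 was called and 2 (MAGED2 and NSMCE3) had group ranges that did not overlap. Over all genes tested, 9.45% were called in 697 (1438 genes; 4.85% higher and 4.60% lower; 2319 genes with the replicate number as a block, with the same calls for the members), and 24.6% of those with a count in the line had ranges that did not overlap. The median log2 fold change of the 5 was 0.15, against 0 over all genes. In KOPN-8, 4 of the 6 tested members (MAGED1, TRO, MAGEH1 and NSMCE3) had ranges that did not overlap, where 46.4% of genes with a count did, and 28.7% of all genes tested were called (11.5% higher and 17.2% lower). These KOPN-8 counts rest on the contrast that the family was picked from.

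The lines differed at baseline in every member that could be tested. Between control KOPN-8 and control 697, 73.3% of all genes were called, 36.6% higher and 36.7% lower in KOPN-8, so a call is the usual case. NSMCE3 was 4.35-fold higher in control KOPN-8 (log2 fold change 2.12, SE 0.112; adjusted p 1.67e-14 by edgeR quasi-likelihood with Benjamini-Hochberg adjustment). MAGEF1 was 2.38-fold higher (1.25, SE 0.0864; same test, adjusted p = 2.98e-12) and MAGED2 1.28-fold higher (0.35, SE 0.0722; adjusted p = 0.000119). MAGEH1 was 1.50-fold lower (-0.58, SE 0.127; adjusted p = 0.000245). In each of these 4 genes all 3 control libraries of one line lay beyond those of the other. MAGED1 and TRO, whose level in control KOPN-8 entered the choice of the family, were not tested here.

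The order of the groups by mean level was not shared by all members. For MAGED1 it was control 697, edited 697, edited KOPN-8 and control KOPN-8, with overlapping ranges at the top pair. NSMCE3 ran from control KOPN-8 through edited KOPN-8 and edited 697 to control 697, all 4 ranges apart. MAGEH1 ran from control 697 through edited 697 and control KOPN-8 to edited KOPN-8, with overlap between the 697 groups. MAGED2 ran from control KOPN-8 through edited KOPN-8 and edited 697 to control 697, with overlap between the KOPN-8 groups, and MAGEF1 overlapped within each line.

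Compared per kilobase of exons, so that genes of different length can be set side by side, MAGED1 led in 697 and MAGEF1 in KOPN-8. Control 697 had 46.5 ± 3.42 CPM per kilobase for MAGED1 (SD, n = 3), 18.8 ± 1.97 for MAGEF1, 14.6 ± 0.548 for MAGED2, 11.7 ± 1.21 for MAGEH1 and 2.23 ± 0.343 for NSMCE3. Control KOPN-8 had 44.9 ± 2.57 CPM per kilobase for MAGEF1, 18.6 ± 0.380 for MAGED2, 9.62 ± 0.334 for NSMCE3, 7.79 ± 0.591 for MAGEH1, 0.881 ± 0.0318 for TRO and 0.127 ± 0.0824 for MAGED1. In edited KOPN-8, MAGED1 stood in the third place rather than the sixth, at 10.5 ± 0.499 CPM per kilobase, behind MAGEF1 and MAGED2. With the length of the longest coding transcript in place of all exons, an alternative added after the data were seen, MAGED2 and MAGEF1 changed places in 697, at 19.6 ± 0.735 and 18.8 ± 1.97 CPM per kilobase in control cells, with overlapping ranges. Lengths are from GENCODE 29 on GRCh38 and may differ from the annotation used for counting.

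The rest of the family had few or no counts, and how the read counter treated reads shared between near-identical genes is not known. None of 26 type I MAGE genes reached 10 counts in a library: 25 had 0 counts in all 12 libraries, and MAGEB17 had 1 count in each of 3. Of 4 further type II genes, MAGEL2 had 3 counts in all libraries together and MAGED4B 1, and MAGED4, whose sequence is nearly the same as that of MAGED4B, and MAGEE2 had 0. The genes of the family with an appreciable measured level were thus MAGED2, MAGEH1, MAGEF1 and NSMCE3 in every group. MAGED1 was among them outside control KOPN-8, and TRO in control KOPN-8 alone.

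The next list holds RING ligases and the deubiquitinase USP7, which work with MAGE proteins. Of 6 tested, 1 rose and 0 fell in 697, where 9.45% of all genes were called, with a median log2 fold change of -0.04. In KOPN-8, where 28.7% of all genes were called, 0 of 6 were (median 0.06). For KOPN-8 these are edgeR calls; at an unadjusted p under 0.05 there was 1, PJA2, and DESeq2 called 0. The gene that rose in 697 was PJA2, a paralog of PJA1, from 253 ± 26.8 to 314 ± 46.2 CPM (SD, n = 3), a log2 fold change of 0.32 (SE 0.0910; adjusted p 0.0303 by edgeR quasi-likelihood with Benjamini-Hochberg adjustment). Its call was lost without control replicate 1 or 3 or edited replicate 2 or 3 (adjusted p 0.110 to 0.186 in the same test) and with the 6 libraries of 697 alone (0.0925). PJA1, the partner of MAGED1, had means of 16.7 to 17.5 CPM over the 4 groups while MAGED1 ran from 0.764 to 280 CPM. TRIM28, TRIM27 and USP7, the most abundant of the others, were not called in either line.

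Of 8 genes of the SMC5/6 complex tested in 697, 1 rose, NSMCE3 itself, and 2 fell (median 0.01), beside 4.85% of all genes higher and 4.60% lower. NSMCE4A, which binds NSMCE3, fell from 66.1 ± 3.89 to 54.2 ± 1.44 CPM (SD, n = 3), a log2 fold change of -0.29 (SE 0.0734; adjusted p 0.0127 by edgeR quasi-likelihood with Benjamini-Hochberg adjustment). Without control replicate 1 its adjusted p was 0.0552, and with the 697 libraries alone it was 0.0510. SLF1, which helps to recruit the complex to damaged DNA, fell by 0.34 on the log2 scale (SE 0.0861; same test, adjusted p = 0.0111), a call lost without control replicate 2 (0.0741) or edited replicate 1 (0.0522). NSMCE1, the direct partner of NSMCE3 and MAGEF1, had 40.1 and 39.8 CPM in control and edited 697 (adjusted p = 0.967).

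In KOPN-8, 3 of the 7 other SMC5/6 genes tested rose and 1 fell (median 0.12), beside 11.5% of all genes higher and 17.2% lower. SLF2 rose from 87.6 ± 5.99 to 116 ± 2.50 CPM (SD, n = 3), a log2 fold change of 0.40 (SE 0.0708; adjusted p 0.000101 by edgeR quasi-likelihood with Benjamini-Hochberg adjustment). SMC6 (0.22, adjusted p = 0.0192) and SMC5 (0.21, adjusted p = 0.0268), the core subunits, rose by calls that were lost without control replicate 2 or edited replicate 1 or 3, and also without control replicate 3 for SMC6 and control replicate 1 for SMC5 (adjusted p 0.0507 to 0.129). NSMCE2, the SUMO ligase of the complex, fell (-0.53, SE 0.0979; same test, adjusted p = 0.000173). NSMCE2 lies on chromosome 8, whose 493 tested genes with a count in KOPN-8 had a median log2 fold change of -0.53.

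Partners of MAGED1 and NDN include receptors, cell-cycle factors and regulators of cell death; whether their changes differed between the lines was not tested. In 697, where 9.45% of all genes were called, 0 of 8 tested rose and 1 fell (median 0.08): E2F4, a cell-cycle repressor, by 0.25 on the log2 scale (SE 0.0728; adjusted p 0.0322 by edgeR quasi-likelihood with Benjamini-Hochberg adjustment), a call lost without control replicate 2 or 3, without edited replicate 2 or 3, and with the 697 libraries alone (adjusted p 0.0595 to 0.119). In KOPN-8, 5 of 8 rose and 1 fell (median 0.37), beside 11.5% of all genes higher and 17.2% lower, with medians over all genes of 0 in both lines. The gene that fell was NGFR, which encodes the low-affinity neurotrophin receptor, from 94.8 ± 16.3 to 44.8 ± 8.11 CPM (SD, n = 3), a log2 fold change of -1.08 (SE 0.125; same test, adjusted p = 1.89e-06). In 697 NGFR had means of 0.0251 and 0.0493 CPM. XIAP rose (0.39, adjusted p = 0.000148), as did E2F1 (0.45, adjusted p = 0.000251), E2F4 (0.35, adjusted p = 0.000546) and HIF1A (0.40, adjusted p = 0.000107). EID1 rose too (0.21, adjusted p = 0.0130), with an adjusted p of 0.104 without control replicate 2.

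The trophinin partners TROAP (tastin) and BYSL (bystin) gave 0 calls by edgeR in either line (0 at an unadjusted p under 0.05 and 0 by DESeq2), while TRO went from 5.91 ± 0.213 to 0.236 ± 0.0253 CPM (SD, n = 3) in KOPN-8. TROAP had means of 105 and 114 CPM in control and edited KOPN-8 and BYSL 64.3 and 64.2 CPM. Beside these 2 genes and the 5 that follow, 9.45% of all genes were called in 697 and 28.7% in KOPN-8. Lists this short can have 0 calls at those shares. MMS19, the target of MAGEF1, and 4 other factors of cytosolic iron-sulfur targeting gave 0 calls of 5 by edgeR in each line (medians -0.04 in 697 and 0.03 in KOPN-8; 0 and 0 at an unadjusted p under 0.05, and 0 and 0 calls by DESeq2).

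Of 13 genes of the imprinted Prader-Willi region on chromosome 15, to which NDN belongs, 11 had a row and 4 were tested. In 697 edgeR called 0 of 4 (1 at an unadjusted p under 0.05, UBE3A, and 0 by DESeq2), where 9.45% of all genes were called. In KOPN-8, 0 rose and 1 of 3 fell, beside 11.5% of all genes higher and 17.2% lower. MKRN3, another intronless imprinted gene, had means of 4.66 and 4.08 CPM in control and edited 697 and 0 counts in KOPN-8. SNRPN stayed at 23.4 to 25.9 CPM over the 4 groups, and UBE3A was not called in either line. SNHG14, the long transcript of the region, fell by 0.25 on the log2 scale in KOPN-8 (SE 0.0861; adjusted p 0.0308 by edgeR quasi-likelihood with Benjamini-Hochberg adjustment), a call lost under 8 of 18 alternatives, among them upper-quartile scaling (0.0575) and leaving out edited replicate 1 (0.228). It was also lost without control replicate 1 or 2 or edited replicate 2 of KOPN-8, without control replicate 3 or edited replicate 2 of 697, and with the KOPN-8 libraries alone (adjusted p 0.0553 to 0.112).

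Around MAGED1 on the X chromosome, the 3 tested genes just before it, GSPT2, NUDT11 and NUDT10, had 0 counts in all 6 KOPN-8 libraries, edited ones included. The same genes stood at 32.0, 67.5 and 0.521 CPM in control 697. Among the 7 of the 10 nearest tested genes that had a count in KOPN-8, 1 rose and 2 fell, where 28.7% of all genes were called. CLCN5, a chloride transporter gene, fell from 18.7 to 10.5 CPM (log2 fold change -0.83, SE 0.137; adjusted p 4.08e-05 by edgeR quasi-likelihood with Benjamini-Hochberg adjustment) and TSPYL2 from 50.3 to 38.5 CPM (-0.38, adjusted p = 0.000403). SMC1A, a cohesin subunit, rose by 0.20, a call lost without any 1 of the 3 controls, edited replicate 1 or edited replicate 2 (adjusted p 0.0648 to 0.122). FAM156B and KANTR, the first and the third after MAGED1, were not called, nor were USP27X and KDM5C. In 697, CLCN5 rose (0.66, adjusted p = 0.00223) and NUDT11 fell (-0.49, adjusted p = 0.00108).

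Near TRO, 8 of the 10 nearest tested genes were no members, and 1 of them rose and 0 fell in KOPN-8, against the same 28.7% of all genes called. RRAGB, a GTPase gene of nutrient sensing, rose from 7.30 to 10.8 CPM (log2 fold change 0.58, SE 0.167; adjusted p 0.0107 by edgeR quasi-likelihood with Benjamini-Hochberg adjustment), a call lost without control replicate 2 (0.0555) or edited replicate 3 (0.0880). APEX2 and FAM104B, the next genes after TRO, had means of 46.4 and 8.25 CPM in control and 50.6 and 7.38 CPM in edited KOPN-8 and were not called. In 697, USP51, a deubiquitinase gene, rose from 2.36 to 6.30 CPM (1.40, adjusted p = 0.000231). Over the whole chromosome, 418 tested genes had a count in KOPN-8. Of these, 64 rose and 52 fell, beside 11.5% of all genes higher and 17.2% lower. Their median log2 fold change was 0.02.

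The neighbours of NSMCE3 on chromosome 15 were looked up after the values were seen. In 697, where 9.45% of all genes were called, 8 of its 10 nearest tested genes had a count. Of these 8, edgeR called 0 (0 at an unadjusted p under 0.05 and 0 by DESeq2), and their median log2 fold change was 0.13. In KOPN-8, 9 had a count, of which 1 rose and 2 fell, where 28.7% of all genes were called. Their median of -0.47 was the value of RPL41P2, at 0.377 and 0.263 CPM in control and edited cells. HERC2, the most abundant of the 9, had 140 and 155 CPM and a log2 fold change of 0.15, and was not called. HERC2, HERC2P9 and AC127502.1 had positive values and the others negative ones. ATP10A, a phospholipid flippase gene, fell from 20.7 to 11.5 CPM (log2 fold change -0.86, SE 0.101; adjusted p 3.84e-07 by edgeR quasi-likelihood with Benjamini-Hochberg adjustment). OCA2, a pigmentation gene, fell from 1.19 to 0.600 CPM (-0.98, adjusted p = 0.0440), a call lost without any 1 of the 6 KOPN-8 libraries, without control replicate 3 or edited replicate 1 or 2 of 697, with no filter on low counts and with DESeq2 (adjusted p 0.0518 to 0.198). The pseudogene HERC2P9, whose reads may be shared with HERC2, rose (0.51, adjusted p = 0.00950), with an adjusted p of 0.0742 without edited replicate 3. The part of the region in the NSMCE3 difference was not tested.

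**Figure D3:**
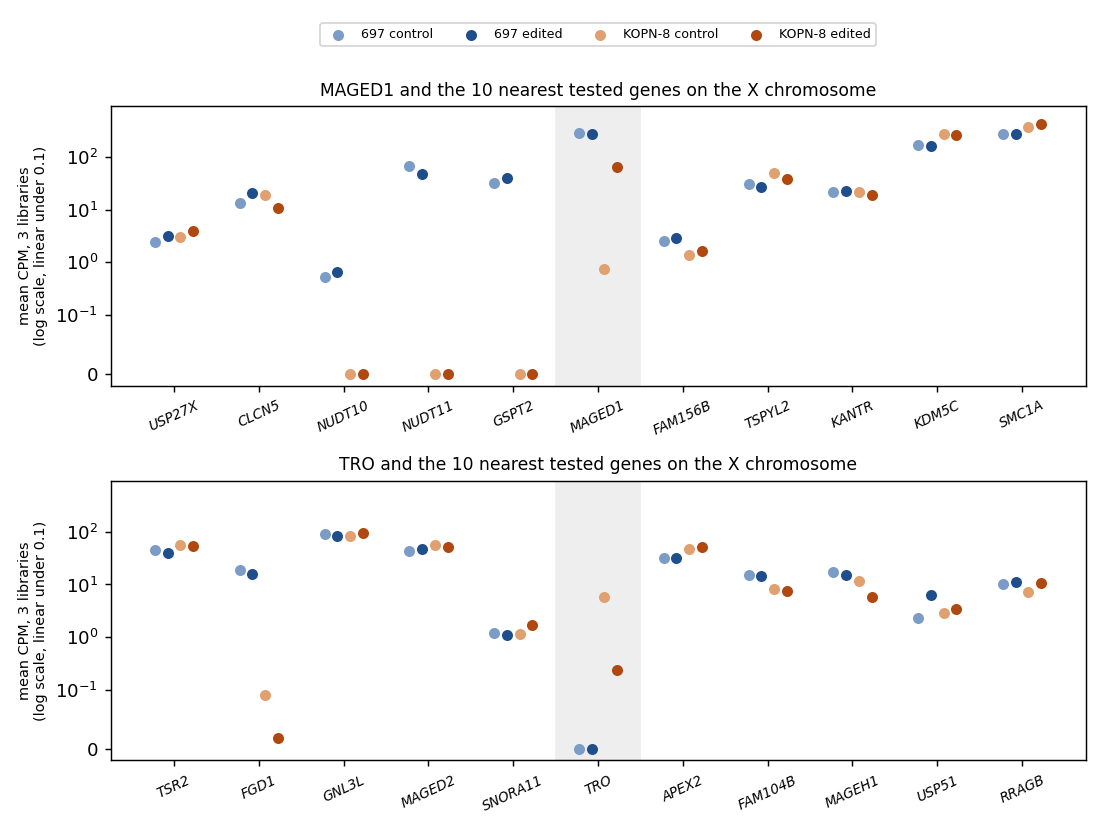
Mean level (y axis, CPM over 3 libraries, log scale with a linear part under 0.1) of MAGED1, TRO and the 10 nearest tested genes of each in chromosome order (x axis), by group. GSPT2, NUDT11 and NUDT10 are at 0 in both KOPN-8 groups beside MAGED1, and the genes beside TRO show no drop of its size between the KOPN-8 groups.

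The genes whose pattern over the 12 libraries lay closest to that of MAGED1 were found from the root-mean-square distance between log2 CPM profiles, each centred on its own mean. They were GNPDA2, a hexosamine enzyme gene, at 0.55, CPNE3, a copine, at 0.59, TFDP2, an E2F partner, at 0.73, BNIP3, a mitophagy receptor, at 0.97, and MINPP1, an inositol phosphatase, at 1.09 log2 units, against a median of 3.46 over all genes tested. None is on the X chromosome. CPNE3 went from 0.424 to 18.1 CPM between control and edited KOPN-8 and had 156 and 147 CPM in control and edited 697. GNPDA2 went from 0.0791 to 9.33 CPM in KOPN-8, with 36.6 and 33.2 CPM in 697. The 12 libraries form 4 groups, so these distances mostly compare 4 group levels.

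For TRO the nearest genes were PLAGL1, an imprinted zinc finger gene, at 0.37, AL133304.3 at 0.41, ST8SIA2, a polysialyltransferase gene, at 0.43, PLA2G2C at 0.44 and MYEOV at 0.46 log2 units, against a median of 2.28. PLAGL1 had 4.16 and 0.302 CPM in control and edited KOPN-8 and at most 0.0251 CPM on average in a 697 group. MYEOV had 9.94 and 0.583 CPM in KOPN-8 and 0 counts in 697. These 5 genes lie on 5 chromosomes, none of them X. They too were picked as the nearest, and a gene with no variation over the libraries would lie 2.26 log2 units from TRO.

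**Figure D4:**
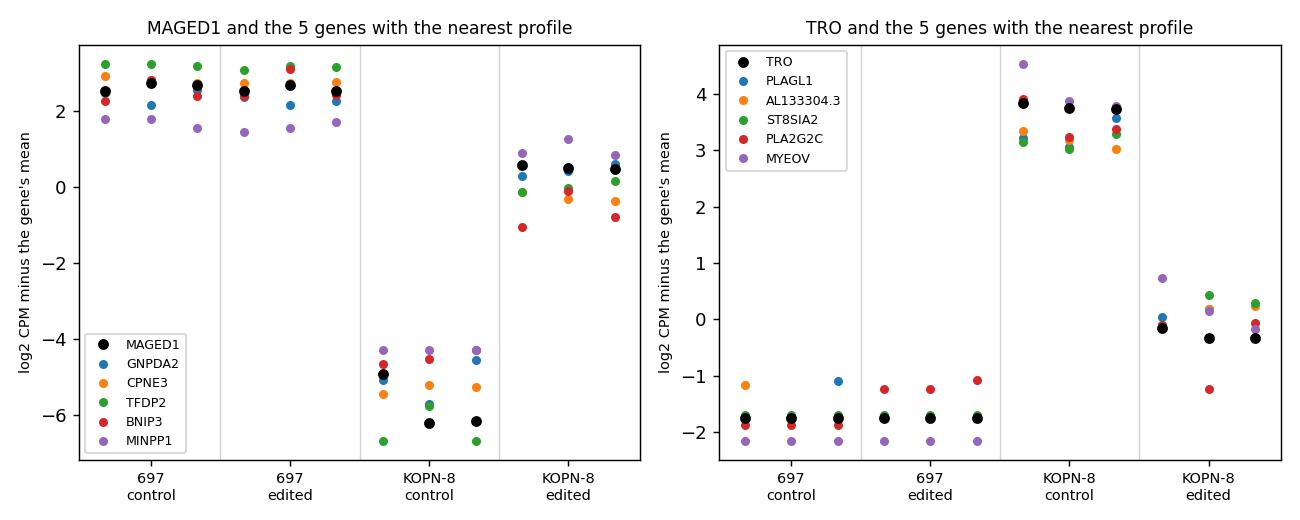
Log2 CPM minus each gene's mean (y axis) in the 12 libraries (x axis, grouped), for MAGED1 (black, left) and TRO (black, right) with the 5 genes of the nearest profile. The MAGED1 set is lowest in control KOPN-8 and the TRO set highest there, and in both sets edited KOPN-8 lies between control KOPN-8 and 697.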

How the data were processed

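Gene counts of 12 libraries, 3 in each of 4 groups taken from the sample titles and labels, were analysed as deposited by the authors; all 12 columns of the raw table matched a sample, and the authors' normalised table was not used. Per the submitters' processing notes the tools include Trimmomatic, STAR and DESeq2 with the build hg19; versions, read counter, annotation and strand setting were not given in the sources used here. Replicates are labelled biological with no more detail. Counts of library pairs within a group differed by more than sampling noise (chi-square per degree of freedom 2.91 to 10.7).

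Counts were scaled with TMM, filtered with filterByExpr over the 4 groups and tested with edgeR 4.0.16 quasi-likelihood F tests (R 4.3.3) in 1 fit of all 12 libraries, without a replicate block. P-values were Benjamini-Hochberg adjusted over all 15218 genes, with calls made under 0.05. CPM uses TMM-scaled library sizes, and log2 CPM a prior count of 2. The fit was tested on simulated data. Ratios of summed counts have 95% intervals.

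The members and gene lists were chosen with earlier results of these data known. Named genes were the members, list genes called in 697 or most abundant, the 5 tested neighbours on either side of MAGED1 and TRO (and of NSMCE3, added after its values were seen), and the 5 nearest profiles; list genes called in KOPN-8 but not in 697 were named after their values were seen. From the list of partners of MAGED1 and NDN, 1 gene is not reported here and was left out of its counts. Structure, order and lengths come from GENCODE 29 and windows from RefSeq, both on GRCh38, so no position was joined to the hg19 counts except by symbol. Same-numbered libraries of a line deviated together weakly, with r = 0.105, 0.207 and 0.104 in 697. In KOPN-8 the values were 0.0508, 0.0362 and 0.0743. Differently numbered libraries had r of at most -0.00760 in 697 and 0.00754 in KOPN-8. Whether the numbers pair the libraries is not stated in the labels and was not tested. Alternatives were 2 other scalings, no filter, DESeq2 1.42.0, the 2 groups compared alone, the replicate block and leaving out each library.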

Additional observations from a re-analysis of the deposited data

Results flagged for a closer look

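NSMCE3 moved in opposite directions in the 2 lines. Every edited 697 library was above every control, with a log2 fold change of 0.70, and every edited KOPN-8 library was below every control, with a log2 difference of -0.52. The median log2 fold change of its tested neighbours with a count was 0.13 in 697 and -0.47 in KOPN-8. In KOPN-8 that median was the value of RPL41P2, at 0.377 and 0.263 CPM, and the neighbours went both ways. The difference between the lines was not tested for NSMCE3, and its KOPN-8 values come from the contrast that the family was picked from. Of tested genes with a count in the line, 24.6% in 697 and 46.4% in KOPN-8 had ranges that did not overlap. CLCN5 was called higher in 697 (log2 fold change 0.66) and lower in KOPN-8 (-0.83), so opposite directions were not unique to NSMCE3. Each line has 1 edited clone, so line and clone cannot be told apart.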

How the results depend on the processing

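Across 18 alternatives the members called or not called in 697 were the same. NSMCE3 kept a log2 fold change of 0.60 to 0.81 there (edgeR or DESeq2, Benjamini-Hochberg adjusted p 4.52e-07 to 0.00663). In KOPN-8, MAGED1 ran from 6.20 to 7.02, TRO from -4.69 to -4.54, MAGEH1 from -1.07 to -0.86 and NSMCE3 from -0.60 to -0.46, and MAGEF1, at -0.05 to 0.06, had no fixed sign. The number of genes called ran from 982 to 2319 in 697, from 3422 to 5348 in KOPN-8 and from 10644 to 12440 between control lines. Its top value in 697, 2319 against 1438, came with the replicate number as a block; the block changed no call among the members. Between control lines TRO, at 0 counts in 697, had a fitted log2 difference of 8.89 with DESeq2 against 9.49. Depth limits MAGEE1 and NDN in all libraries, where 3 counts came to 0.159 to 0.292 CPM, and TRO in 697, where they came to 0.182 to 0.292 CPM.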
